A study of Mus musculus with 16 samples.

Results

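The genes described here are interferon-induced and interferon-regulatory genes measured on a mouse spotted-oligonucleotide array. They were taken by name: every gene whose symbol in the array's probe table starts with H2-, Ifit, Ifi, Oas or Gbp, or is Irf followed by 1 digit. The rule gave 42 of 17710 genes, each read through its brightest probe: 7 Gbp genes, 9 Oas and Oasl genes, 2 Ifit genes, 5 Ifitm genes, 10 other Ifi genes including Ifih1, 8 Irf genes and 1 H2- gene. The H2- gene, H2-Aa, was found only as a synonym, because the probe table writes symbols in capitals and without hyphens. The set is therefore an interferon set, and what it holds of the major histocompatibility complex (MHC) is a single class II chain. Measured genes outside the H2- group whose current name fits the rule but whose table symbol does not, such as Ifit3b and Ifi206, were not taken.

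The study compared cardiac progenitor cells with cardiomyocytes on 16 arrays of 6 cell groups, all from C57BL/6 mice of the genotype given as Normal, with no age stated. From bone marrow came c-kit cells sorted by flow cytometry (3 arrays) and mesenchymal stem cells (MSC) taken after 5 passages (3 arrays). From heart came sorted c-kit cells (3 arrays), sorted Sca1+CD45-CD31- cells (3 arrays), side population cells, which pump out the dye Hoechst 33342 (2 arrays), and cardiomyocytes pelleted at 100 rpm for 1 min, the control (2 arrays). The labels list Matrigel-coated dishes and mTeSR medium for every group, and do not say whether the arrays of a group came from separate animals, so the p-values measure the spread between arrays only. Each value is a log2 level: 25% of all values lay below -2.8, the median was -0.07, and 10% lay above 5.01. On each array 1 value, called the fill value here, was repeated over more probes than any other, and on 12 of the 16 arrays a single other repeated value lay below it, so a gene at or below the fill value has only an upper bound.

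Interferons are secreted proteins that bind receptors on the same or neighbouring cells. Type I interferon acts through Jak kinases and a complex with Irf9 that binds a DNA element called the interferon-stimulated response element (ISRE), while interferon gamma acts mainly through another element, the gamma-activated site (GAS). The genes switched on include the Ifit, Oas and Gbp families, which act against viral RNA and microbes inside the cell, and Irf7, which amplifies the response. MHC class II genes such as H2-Aa depend on the coactivator Ciita and on promoter elements that include the Y box, and are made mainly by antigen-presenting cells.

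The promoters of several members carried the element that the interferon complex reads, and those of the 2 members with the smallest p-values below are shown for that reason. All sequences are from RefSeq on GRCm38.p6, read 5′ to 3′ on the gene's own strand, and the capitals mark matches on either strand to the ISRE core, searched as GAAA and GAAA with 2 bases of any kind between them. The 250 bases before the listed start of Ifit1 (plus strand, chr19:34640639-34640888) held 2 matches, which began 104 and 85 bases before the start, and those before Gbp2 (plus strand, chr3:142620413-142620662) held 1, at 59 bases.
Ifit1: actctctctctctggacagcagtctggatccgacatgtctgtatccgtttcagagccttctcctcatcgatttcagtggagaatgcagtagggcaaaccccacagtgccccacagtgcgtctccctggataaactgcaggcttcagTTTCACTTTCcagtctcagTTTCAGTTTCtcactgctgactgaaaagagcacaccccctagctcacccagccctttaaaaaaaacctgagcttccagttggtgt
Gbp2: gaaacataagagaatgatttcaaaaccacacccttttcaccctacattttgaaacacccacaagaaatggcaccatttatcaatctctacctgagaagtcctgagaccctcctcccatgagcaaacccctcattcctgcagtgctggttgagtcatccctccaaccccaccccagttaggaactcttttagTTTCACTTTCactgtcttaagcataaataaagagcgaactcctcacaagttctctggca

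Windows of 30 bases show the same element in 3 other members of different families, the GAS in Irf1 and the Y box in H2-Aa. They came from Gbp3 (plus strand, chr3:142559989-142560018, with 2 overlapping matches), Ifi203 (minus strand, chr1:173942508-173942537), Oas3 (minus strand, chr5:120777715-120777744), Irf1 (plus strand, chr11:53769914-53769943) and H2-Aa (minus strand, chr17:34287856-34287885). Their capitals begin 45, 35, 75, 90 and 51 bases before a listed start, and Gbp3, Ifi203 and Irf1 each have 2 listed starts.
Gbp3: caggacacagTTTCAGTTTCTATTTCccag
Ifi203: aagagctgggGAAATCGAAAgctatgaaca
Oas3: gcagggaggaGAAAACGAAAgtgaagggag
Irf1: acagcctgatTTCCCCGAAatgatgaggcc
H2-Aa: aagagaattttCTGATTGGttctggcgagt

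Promoter entries, from 250 bases before to 50 after the start, were found for 33 of the 42 members. The ISRE core was in 12 of these 33 (36.4%) and in 3.99% of the 27025 genes with an entry. The GAS letters TTCNNNGAA were in 8 of the 33 (24.2%) against 9.55% of genes, and in Ifitm3 a GAS match overlapped an ISRE match. The Y box letters CTGATTGG were in 2 members, H2-Aa and Irf8 (6.06%), against 4.7% of genes. Among members with an entry, the ISRE core was in 5 of the 13 that differed between the cell groups below and in 7 of the 20 that did not. A match of letters is not a measured site, and since these families were chosen by name as interferon genes, the shares describe the families and not these cells.

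Across the 6 groups, 17 of the 42 members differed (40.5%; limma's moderated F-test over all 17710 genes, Benjamini-Hochberg adjusted p under 0.05), and 31.9% of all genes did. By adjusted p, Ifit1 (3.9e-06), Gbp2 (0.000432), Ifi27 (0.000789), Ifi27l2a (0.00132), Irf7 (0.00143) and Oasl1 (0.00159) came first. They were followed by Gbp9, Ifi203, Irf5, Ifi44, Oasl2, Gbp3, Ifi27l2b, Ifih1, Oas1h, Irf9 and Ifitm6. Of the 17, the F-test kept 11 under each of 24 other settings: Ifit1, Gbp2, Gbp9, Ifi203, Ifi27, Ifi27l2a, Ifi44, Irf5, Irf7, Oasl1 and Oasl2. The highest group mean was in cardiomyocytes for 17 of the 42 members (and for 12.1% of all genes), in the side population for 7 (23.1%), in MSC for 6 (16.9%), in the Sca1 sort for 5 (12.7%), in the marrow c-kit sort for 4 (18.4%) and in the heart c-kit sort for 3 (16.8%). The lowest was in marrow c-kit cells for 13 (15.9% of all genes), in MSC for 10 (16.8%), in the side population for 8 (22.2%), in the Sca1 sort for 6 (17.5%), in the heart c-kit sort for 3 (12.7%) and in cardiomyocytes for 2 (15%).

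**Figure D1:**
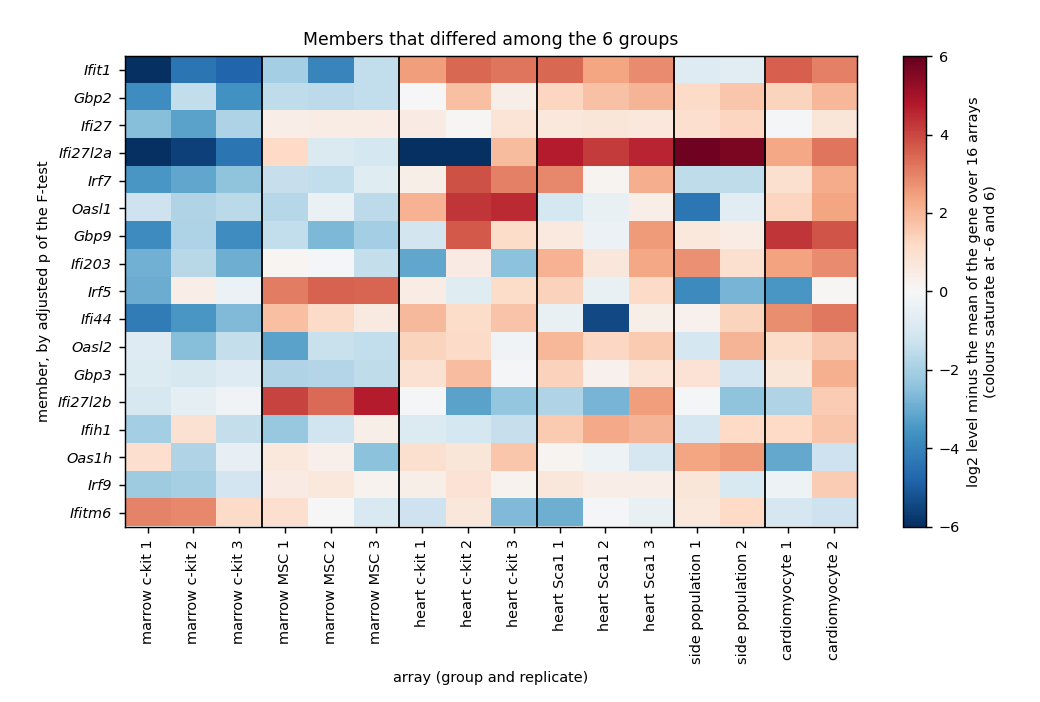
Colour gives the log2 level of the 17 members that differed among the 6 groups (vertical axis, by adjusted p) on each of the 16 arrays (horizontal axis, by group and replicate), relative to the gene's own mean over all arrays; colours saturate at -6 and 6. The marrow c-kit arrays are low for most members and high for Ifitm6, the MSC arrays are high for Irf5 and Ifi27l2b, and Ifi27l2a is split within heart c-kit cells.

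The cells carried markers of other cell types, which matters for genes that leukocytes and endothelium also express; in bulk samples, fewer cells of a type and less RNA per cell cannot be told apart. The mean level of 15 macrophage and leukocyte markers (of 17 listed) was 5.3 to 5.76 on the MSC arrays and 4.12 to 4.47 on the marrow c-kit arrays, 2.89 and 3.11 on the cardiomyocyte arrays, 1.91 to 2.35 on the heart c-kit arrays, and -0.69 to 0.01 on the other heart arrays except Sca1 replicate 3, at 2.28. The mean of 12 endothelial markers was 6.62 and 6.92 in cardiomyocytes and 5.06 to 5.78 in heart c-kit cells. It was 0.86 and 2.1 on Sca1 replicates 1 and 2 but 5.39 on Sca1 replicate 3, although that sort removes CD31+ and CD45+ cells. No listed marker was at or below the fill value on every array of a group. The fibroblast list averaged 1.95 to 2.69 on the MSC arrays against 6.05 to 6.37 on the Sca1 arrays. It averaged 5.25 and 5.46 in the side population and 3.94 and 4.93 in cardiomyocytes. On heart c-kit replicates 1, 2 and 3 it averaged 0.46, 0.93 and 2.69, and on the marrow c-kit arrays -2.08 to -1.45. Cardiomyocyte markers were highest in cardiomyocytes (5.82 and 6.11). The side population arrays and heart c-kit replicate 2 were dim, with median intensities of 15, 22 and 18 against 45 to 200 elsewhere. Heart c-kit replicate 2 had 6 members at or below the fill value, the most of any array. The part of these markers and of brightness in the results was not tested.

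Among the regulators, Irf7, which drives type I interferon genes and is itself interferon-induced, was high in heart c-kit cells, Sca1 cells and cardiomyocytes and low in both marrow groups and the side population. Its log2 levels were 3.31, 6.78 and 5.96 in heart c-kit cells, 5.83, 3.12 and 5.11 in Sca1 cells, and 3.91 and 5.19 in cardiomyocytes. They were -0.53, -0.17 and 0.51 on the marrow c-kit arrays, 1.56, 1.48 and 2.22 on the MSC arrays, and 1.44 and 1.42 in the side population, so these 3 groups did not overlap the other 3. Irf9, the DNA-binding subunit of the type I complex, averaged 1.56 ± 0.55 (SD, n = 3) in marrow c-kit cells and 3.24 to 3.94 in the other groups (F-test adjusted p = 0.0419). None of the 13 other arrays was as low as the highest marrow c-kit array, at 2.19, although side population replicate 2 came near, at 2.43. The F-test of Irf9 passed in 11 of 24 other settings.

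Irf5, a factor best known from macrophages and other myeloid cells, had another pattern. It read 5.93, 6.38 and 6.36 on the MSC arrays and at most 4.22 on any other array, with -0.95 and 0.07 in the side population and -0.65 and 2.93 in cardiomyocytes (F-test adjusted p = 0.00438). The myeloid and lymphoid factor Irf8 also read highest on average in MSC, at 3.21, 4.31 and 3.12, but heart c-kit replicate 3 reached 3.71 and its F-test missed the threshold (adjusted p = 0.0588). The MSC arrays had the highest macrophage and leukocyte mean (5.3 to 5.76), followed by the marrow c-kit arrays (4.12 to 4.47). On the marrow c-kit arrays Irf5 averaged 1.88 and Irf8 0.06. A link between these markers and either gene was not tested. Irf3, the constitutive partner of Irf7, had group means of 3.44 to 4.99 (adjusted p = 0.561), Irf2, a repressor of the response, -3.94 to 2.37 (0.205), and Irf4, known from lymphocytes, -5.11 to -0.78 (0.155).

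Irf1, an activator induced by interferon gamma, was read by 2 probes that disagreed. On the brighter one, which the rule takes, group means ran from 3.27 in Sca1 cells to 5.65 in cardiomyocytes (F-test adjusted p = 0.275). The highest arrays were replicate 1 of cardiomyocytes (7.05), heart c-kit cells (6.48) and marrow c-kit cells (5.88). All other arrays read 3.16 to 4.73. On this probe marrow c-kit cells differed from cardiomyocytes by -0.7. The dimmer probe gave -8.46 for the same difference, so no statement on Irf1 was possible beyond the probe used.

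The Ifit genes bind viral RNA and block its translation, and Ifit1 separated the groups more clearly than any other member. It read -4.02, -2.05 and -2.44 on the marrow c-kit arrays, 0.3, -1.64 and 0.85 on the MSC arrays, and 1.54 and 1.64 in the side population. It read 4.85, 5.8 and 5.54 in heart c-kit cells, 5.76, 4.72 and 5.19 in Sca1 cells, and 5.92 and 5.38 in cardiomyocytes. The 8 arrays of the last 3 groups all lay at or above 4.72, with overlapping ranges, the side population lay between them and the marrow groups, and no marrow array reached any heart array. Ifit2 had its highest means in cardiomyocytes (3.8 ± 0.36, n = 2) and Sca1 cells (3.02 ± 0.15, n = 3) and its lowest in MSC (0.56 ± 0.74, n = 3), and its F-test missed the threshold (0.0548).

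**Figure D2:**
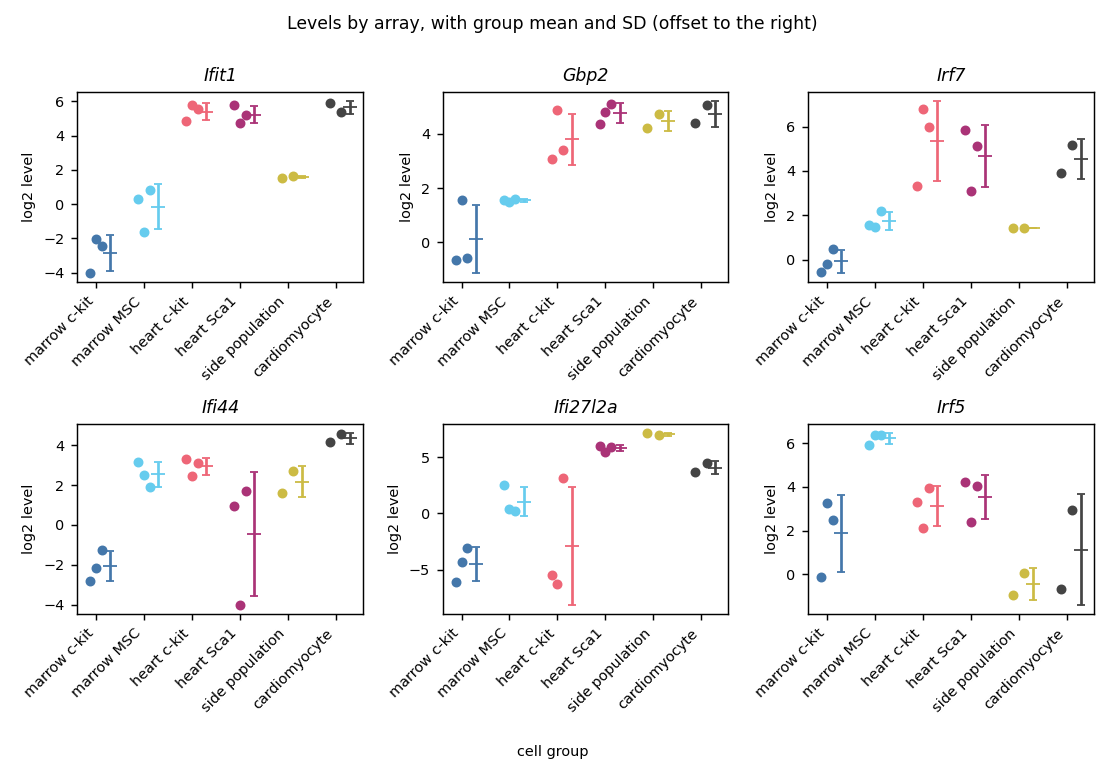
Each panel shows 1 member: log2 level (vertical axis) on every array by cell group (horizontal axis), with the group mean and SD offset to the right. Ifit1, Gbp2 and Irf7 are low in both marrow groups, Ifi44 is low in marrow c-kit cells and on 1 Sca1 array at -4.02, Ifi27l2a spreads from -6.3 to 3.18 within heart c-kit cells, and Irf5 is highest in MSC.

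The guanylate-binding proteins (Gbp) are large GTPases that attack vacuoles holding microbes and respond to interferon gamma most of all. Of the 7 measured, 3 differed (42.9%, against 31.9% of all genes). Gbp2 read -0.64, 1.57 and -0.56 in marrow c-kit cells and 1.56, 1.48 and 1.61 in MSC, against 3.08, 4.88 and 3.42 in heart c-kit cells, 4.36, 4.82 and 5.1 in Sca1 cells, 4.22 and 4.74 in the side population, and 4.39 and 5.08 in cardiomyocytes. Every heart array was thus above every marrow array, with a gap from 1.61 to 3.08. Gbp9 was highest in cardiomyocytes (3.77 and 3.27), variable in heart c-kit cells (-1.59, 3.18 and 0.6), and lowest in marrow c-kit cells (-4.29, -2.36 and -4.22). Gbp3 averaged 1.82 ± 0.16 on the MSC arrays and 2.66 ± 0.1 on the marrow c-kit arrays (SD, n = 3 each) and 3.36 to 4.94 in the heart groups, but side population replicate 2, at 2.36, lay among the marrow arrays. Without MSC replicate 1 or 2, or on the scale of the deposited values or of aligned array medians, the F-test of Gbp3 no longer passed (highest adjusted p = 0.177). The other members, Gbp5, Gbp6, Gbp11 and Gbp2b, had F-test adjusted p of 0.213, 0.155, 0.865 and 0.873. Gbp2b was at or below the fill value on 8 of the 16 arrays and Gbp5 on 6.

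Active Oas enzymes make short oligoadenylates that activate RNase L when they meet double-stranded RNA. Which members code for an active enzyme was not examined. The share that differed, 3 of the 9 Oas and Oasl genes (33.3%), was near that of all genes (31.9%). Oasl1, which in the mouse holds back the translation of Irf7 messenger RNA, was highest in heart c-kit cells, at 1.36, 3.58 and 3.75, followed by cardiomyocytes at 0.56 and 1.64. All other arrays read -0.33 or less, and side population replicate 1 was at or below its array's fill value. Oasl2 read 5.76 or more on 8 of the 10 heart arrays, 4.49 on heart c-kit replicate 3 and 3.61 on side population replicate 1, and 1.49 to 3.92 on the marrow arrays (adjusted p = 0.0134). Oas1h was low throughout, from -6.11 in a cardiomyocyte array to -0.51 in a side population array (0.0392), and its F-test passed in 10 of 23 other settings. Oas3 had its highest mean in MSC (2.99 ± 0.5, n = 3) and its lowest in Sca1 cells (0.19 ± 0.29, n = 3; 0.0633). Oas1b, Oas1c, Oas1f, Oas1g and Oas2 had adjusted p from 0.123 to 0.727. Most Oas genes lie in 1 cluster of near copies on chromosome 5 and the probe sequences were not used here, so signal shared between them was not tested.

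Of the 10 Ifi genes, 6 differed (60%, against 31.9% of all genes), in several ways. Ifi27, a small mitochondrial and nuclear-envelope protein, was uniformly high, at 7.22 to 8.56 on 13 arrays, except in marrow c-kit cells, at 4.71, 4.05 and 5.41. Ifi203, a DNA-binding protein of the HIN family, was highest in cardiomyocytes (4.42 and 4.84), the side population (4.76 and 2.95) and Sca1 cells (4.08, 2.69 and 4.35) and lower in marrow c-kit cells (-0.89, 0.33 and -0.9) and on heart c-kit replicates 1 and 3 (-1.12 and -0.44), with 2.52 on heart c-kit replicate 2. Ifi44, a cytoplasmic protein of unsettled function, read 4.17 and 4.56 in cardiomyocytes and -2.8, -2.14 and -1.26 in marrow c-kit cells; Sca1 cells were split, at 0.93, -4.02 and 1.71.

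Ifi27l2a had the widest range of all: 7.13 and 6.92 in the side population, 6.01, 5.49 and 5.88 in Sca1 cells, 3.63 and 4.49 in cardiomyocytes, and 2.5, 0.42 and 0.24 in MSC. In marrow c-kit cells it read -6.08, -4.29 and -3.08, and in heart c-kit cells -5.5, -6.3 and 3.18; marrow c-kit replicate 1 and heart c-kit replicate 2 were at or below the fill value. Heart c-kit replicate 3 thus stood nearest to the cardiomyocytes and the 2 other arrays of its group nearest to marrow c-kit cells. Ifi27l2a and Ifi27 overlap on chromosome 12 (103433873 to 103443680 and 103434189 to 103440245 on GRCm38.p6), and which transcripts the probes see was not tested. Their neighbour Ifi27l2b was high only in MSC by its group means, at 0.98, 0.33 and 1.63 against -0.55 or less on the 13 other arrays (adjusted p = 0.0256); without any 1 of the MSC arrays it no longer passed (highest adjusted p 0.113).

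Ifih1 (MDA5), a sensor of double-stranded RNA, was dim throughout, at or below the fill value on 5 of the 16 arrays, yet Sca1 cells (-2.46, -1.76 and -2.02) lay above every other progenitor array, and cardiomyocytes read -2.84 and -2.37 (F-test adjusted p = 0.0376, passed in 10 of 23 other settings). Ifi204, another HIN protein, was at or below the fill value on all marrow c-kit arrays (-6.08, -5.89 and -6.08) and varied from -6.16 to 2.35 in heart c-kit cells (0.0677). The lysosomal thiol reductase Ifi30 had group means of 2.27 to 5.02, highest in MSC (0.216), Ifi35 of 1.65 to 2.85 (0.274) and the GTPase Ifi47 of -2.35 to 3.81 (0.104).

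The Ifitm proteins sit in membranes and hinder the entry of viruses. Ifitm3 was high everywhere, with group means of 7.79 to 8.9 (F-test adjusted p = 0.255). Of the 5 measured, only Ifitm6 differed (F-test adjusted p = 0.047), or 20% against 31.9% of all genes. It read 0.21, 0.12 and -1.61 in marrow c-kit cells and -1.56 to -5.69 on all other arrays. The lowest marrow c-kit array thus touched the side population, and the call held in 10 of 23 other settings. Ifitm1, Ifitm5 and Ifitm7 had adjusted p of 0.175, 0.402 and 0.112.

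H2-Aa, the alpha chain of the class II molecule that presents peptides to helper T cells, did not pass the F-test (adjusted p = 0.118), and 1 array decided this. It read 5.34 and 5.87 in cardiomyocytes, 5.39, 4.9 and 3.88 on the MSC arrays, 2.75, 3.2 and 3.35 on the marrow c-kit arrays, 1.64, 3.83 and 4.25 in heart c-kit cells, and 0.52 and 1.76 in the side population. In Sca1 cells it read 0.76 and 1.86 on replicates 1 and 2 and 6.0, the highest value of all, on replicate 3. Among the Sca1 arrays, replicate 3 also had the highest endothelial and leukocyte means, and the part of these markers was not tested. Without that array the F-test passed (adjusted p = 0.00747). The invariant chain Cd74, which escorts class II molecules, likewise read 1.93 and 1.84 on the first 2 Sca1 arrays and 4.64 on the third, with 4.3 and 4.85 in cardiomyocytes (F-test 0.0511). Their coactivator Ciita had an adjusted p of 0.606, and B2m, the light chain of class I molecules, read 5.5 to 7.36 on the marrow arrays and 7.49 to 8.16 on the heart arrays (0.0818).

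Each progenitor group was next set against cardiomyocytes, the comparison the study was built for. The 5 differences share the same 2 cardiomyocyte arrays, so they are given side by side and not counted as independent. Against cardiomyocytes, marrow c-kit cells had 13 members called, 12 lower and 1 higher (12.4% of all genes were called, 7.44% as lower and 5% as higher). MSC had 6, 5 lower and 1 higher (7.87% of all genes, 3.94% in each direction). Side population cells had 3, 2 lower and 1 higher (5.2% of all genes, 3.29% as lower and 1.91% as higher). Heart c-kit cells had 1, lower (3.6% of all genes, 2.6% as lower and 0.999% as higher), and Sca1 cells had 0 (0% of all genes; limma gave 7 members and 2068 genes an unadjusted p under 0.05). The median log2 difference over the 42 members was -1.49 in marrow c-kit cells, -1.72 in MSC, -1.24 in the side population, -0.46 in Sca1 cells and -0.35 in heart c-kit cells, against 0.06 to 0.14 over all genes. With array medians merely aligned, the members' median became 0.68 in the side population, 0.37 in Sca1 cells and 0.63 in heart c-kit cells while that of all genes became 1.34, 0.52 and 0.83, so only the position below all genes held there; the side population then had 3 members called higher and 0 lower, with 14.8% of all genes called, 13.5% as higher and 1.3% as lower.

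**Figure D3:**
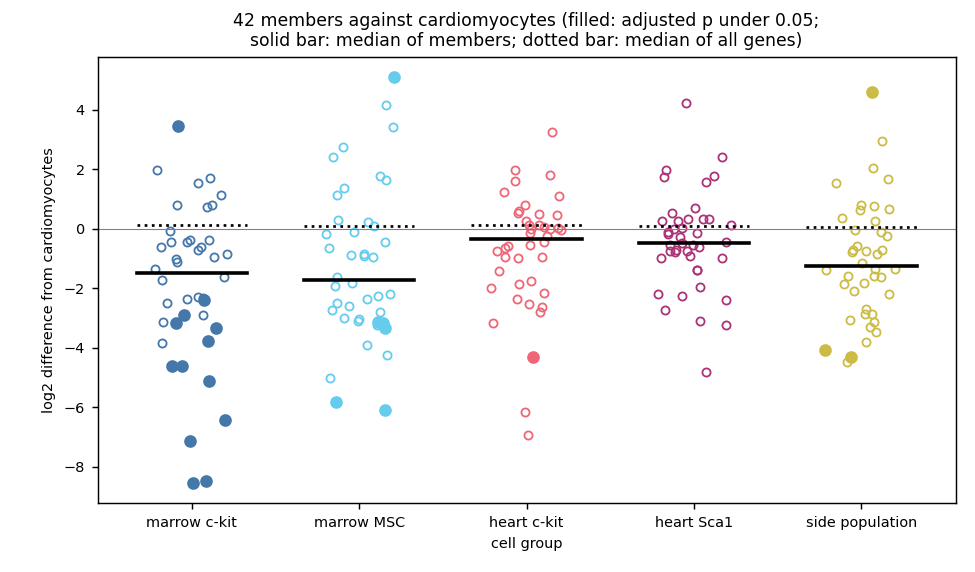
Each point is 1 of the 42 members; the vertical axis gives its log2 difference from cardiomyocytes in the cell group on the horizontal axis, filled where the adjusted p was under 0.05, with the median of the members (solid bar) and of all genes (dotted bar). Marrow c-kit cells have 12 filled points below 0 and 1 above, and Sca1 cells have none.

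In marrow c-kit cells the largest of the 12 lower members were Ifi27l2a (log2 difference -8.55 ± 2.01, SE), Ifit1 (-8.48 ± 0.79), Gbp9 (-7.15 ± 1.17), Ifi44 (-6.43 ± 1.25) and Ifi203 (-5.12 ± 1). Irf7 (-4.62), Gbp2 (-4.61), Oas2 (-3.76), Oasl1 (-3.35), Ifit2 (-3.17), Ifi27 (-2.89) and Irf9 (-2.38) were the others, and Ifitm6 was higher (3.46 ± 1.04). With each of the 16 arrays left out in turn, 6 kept their call: Ifit1, Gbp2, Gbp9, Ifi27, Ifi203 and Ifi44. Without cardiomyocyte replicate 1 there were 8 calls and without replicate 2 there were 6, the array left in that group being assumed to vary like the other groups. Ifi27l2a and Oas2 were lost without either cardiomyocyte array, Irf7 and Irf9 without cardiomyocyte replicate 2 (Irf9 then at -1.48), Irf9 also without marrow c-kit replicate 1 or 2 and Oas2 without marrow c-kit replicate 2 or 3, while Ifit2, Oasl1 and Ifitm6 were lost under 12, 11 and 8 of the 16 omissions. With array medians aligned 4 members were called, all lower, and with the deposited values unchanged 5. Markers of marrow progenitors averaged 6.82 to 7.08 on these arrays against 1.03 and 1.1 in cardiomyocytes, and endothelial markers 0.17 to 0.27 against 6.62 and 6.92.

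In MSC, Gbp9 (-6.09 ± 1.17, SE), Ifit1 (-5.82 ± 0.79), Oasl2 (-3.33 ± 0.92), Gbp2 (-3.18 ± 0.74) and Gbp3 (-3.12 ± 0.74) were lower than in cardiomyocytes, and Irf5 was higher (5.09 ± 1.11). Ifit1 alone kept its call with each array left out (-6.29 to -5.08). Without cardiomyocyte replicate 1, Ifit1 and Gbp3 remained called; without cardiomyocyte replicate 2 or without MSC replicate 1, 2 or 3, Gbp9, Ifit1 and Irf5 were. Without cardiomyocyte replicate 1 the Irf5 difference was 3.36, and Oasl2 was lost under 9 of the 16 omissions. With array medians aligned 2 members were called (Gbp9 and Irf5), and with the deposited values 3.

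Among the heart progenitors, side population cells were lower than cardiomyocytes for Ifit1 (-4.06 ± 0.86, SE, adjusted p = 0.0181) and Oasl1 (-4.3 ± 1.1, 0.0388), and higher for Oas1h (4.59 ± 1.08, 0.0278), which had 1 cardiomyocyte array at or below the fill value, as Oasl1 had 1 side population array. Without either cardiomyocyte array none of the 3 was called, and with the deposited values only Oasl1 was. Oasl1 was also lost without side population replicate 1, when its difference was -2.47. Heart c-kit cells were lower for Ifi203 (-4.31 ± 1, adjusted p = 0.029). That call was lost without heart c-kit replicate 1 or 3, without either cardiomyocyte array, with array medians aligned and with the deposited values, and 2 members were called when either or both side population arrays were left out, Ifi203 and Ifi47 (Ifi47 -6.1 without both). Leaving out heart c-kit replicate 3 gave Ifi27l2a (-9.93) and Ifi47 (-7.56). Sca1 cells had 2 calls without their replicate 3: H2-Aa (-4.31 ± 0.91, SE, adjusted p = 0.0458) and Ifi44 (-5.89 ± 1.2, 0.0405), when 0.926% of all genes were called.

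Within the marrow, MSC were higher than marrow c-kit cells for 6 members and lower for 0 (11% of all genes were called, 7.37% as higher and 3.66% as lower). They were Ifi27l2b (4.62 ± 1.28, SE), Ifi44 (4.61 ± 1.12), Irf5 (4.35 ± 0.99), Ifi27 (2.98 ± 0.49), Ifit1 (2.67 ± 0.7) and Irf9 (2.19 ± 0.6). The median over the 42 members was nevertheless -0.03, with 21 above 0 and 21 below, against -0.14 over all genes. Ifi27 kept its call with each array left out (2.64 to 3.3). Ifi27l2b was lost without any 1 of the 6 marrow arrays, and Irf9 without any but marrow c-kit replicate 3. Counts fell to 2 without marrow c-kit replicate 1 (Ifi27 and, lower in MSC, Irf4) or MSC replicate 1 (Ifi27 and Irf5), to 3 without marrow c-kit replicate 2 (Ifi27, Ifit1 and Irf5) or MSC replicate 3 (Ifi27, Ifi44 and Irf5), and rose to 10 without heart c-kit replicate 2, an array of neither group, which enters through the shared normalisation and estimate of spread.

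Between the groups taken as stromal in the 2 organs, MSC differed from heart Sca1 cells in 8 members, 6 lower and 2 higher in MSC (10.3% of all genes were called, 5.3% as lower and 5.01% as higher). Ifit1 (-5.39 ± 0.7, SE), Oasl2 (-3.59 ± 0.82), Gbp2 (-3.21 ± 0.66), Ifih1 (-3.01 ± 0.84), Irf7 (-2.93 ± 0.87) and Gbp3 (-2.52 ± 0.66) were lower, and Ifi27l2b (4.73 ± 1.28) and Oas3 (2.79 ± 0.67) were higher. Ifit1 (-5.86 to -4.65) and Gbp2 (-3.41 to -3.05) kept their calls with each array left out. There were 3 calls without MSC replicate 1 or 2, 5 without MSC replicate 3 or Sca1 replicate 2, and 4 without Sca1 replicate 1, and Irf7 was lost under 13 of the 16 omissions. Gbp3, Ifi27l2b and Ifih1 were each lost under 5, Oas3 under 4, and Oasl2 without MSC replicate 1. With array medians aligned 4 were called: Ifit1, Gbp6, Ifi27l2b and Oas3. Marker lists differed here too. Of the macrophage and leukocyte markers, 13 of 15 were higher in MSC, while 5 of 12 endothelial, 4 of 9 fibroblast and 4 of 7 cardiomyocyte markers were lower.

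Between the heart sorts, c-kit cells differed from Sca1 cells in 4 members (11.2% of all genes were called, 7.87% as lower and 3.31% as higher). Ifi27l2a (-8.66 ± 1.8, SE), Ifi203 (-3.39 ± 0.9) and Ifih1 (-3.04 ± 0.84) were lower in c-kit cells and Oasl1 was higher (3.98 ± 0.9); Ifih1 was at or below the fill value on 2 of the 3 heart c-kit arrays and Ifi27l2a on 1. The difference of Ifi27l2a moved from -8.66 to -11.66 without heart c-kit replicate 3 and kept its call with each array left out. Without heart c-kit replicate 1 or 3 it was called with Oasl1 alone, without Sca1 replicate 1 by itself, and with array medians aligned again with Oasl1. Ifih1 was lost without any 1 of the 6 arrays compared, and Ifi203 without heart c-kit or Sca1 replicate 1 or 3.

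By organ, the 10 heart arrays lay above all 6 marrow arrays for 3 members, Ifit1, Gbp2 and Gbp9 (7.14% of the 42), and for 0.994% of all genes; no member had every heart array below (2.41% of all genes). The margins were 1.54 over 0.85 for Ifit1, 3.08 over 1.61 for Gbp2 and -1.59 over -1.99 for Gbp9. With c-kit as the shared sort marker, the 3 heart c-kit arrays lay above the 3 marrow c-kit arrays for 10 members (23.8%; 12.2% of all genes): Gbp2, Gbp3, Gbp9, Ifi27, Ifi44, Ifit1, Irf7, Irf9, Oasl1 and Oasl2. They lay below for 2, Ifi47 and Ifitm6 (13.3% of all genes). This is a description of the arrays, with no test of the single genes.

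Whether the c-kit to stromal difference was the same in heart and marrow was tested as an interaction, and 2 members were called, both higher (7.46% of all genes, 3.66% as higher and 3.8% as lower). Stromal here stands for Sca1 cells in heart and MSC in marrow, which were unlike in their markers. The fibroblast list averaged 6.05 to 6.37 on the Sca1 arrays and 1.95 to 2.69 on the MSC arrays. Macrophage and leukocyte markers averaged 5.3 to 5.76 on the MSC arrays, above marrow c-kit cells at 4.12 to 4.47. For Ifi44, c-kit cells were above Sca1 cells in heart (2.95 ± 0.44 against -0.46 ± 3.11, SD, n = 3 each) and below MSC in marrow (-2.07 ± 0.77 against 2.54 ± 0.62, n = 3 each), a difference of differences of 8.01 ± 1.58 (SE, adjusted p = 0.00666). It kept its call with each array left out, at 6.2 without Sca1 replicate 2, the low array. For Ifi27 the heart c-kit and Sca1 cells read 7.73 ± 0.36 and 7.95 ± 0.03, and marrow c-kit cells lay below MSC (4.72 ± 0.68 and 7.7 ± 0.02), giving 2.76 ± 0.7 (0.0269). The Ifi27 call was lost without marrow c-kit replicate 1 or 2 or any MSC or Sca1 array (2.42 to 3.08 over the arrays left out), with array medians aligned and with the deposited values. Calls numbered 4 without the 30% of genes lowest on average, 5 with low values raised, 4 without heart c-kit replicate 2 or 3, and 5 without either or both side population arrays.

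Other genes of the pathway, listed from general knowledge with earlier results of these data known, included several effectors with low marrow levels. Of 29 other interferon-induced genes measured (of 32 listed), 16 passed the F-test (55.2%, against 31.9% of all genes). Against cardiomyocytes, 8 were lower and 0 higher in marrow c-kit cells (7.44% of all genes were lower) and 6 lower and 0 higher in MSC (3.94%). Isg15, a ubiquitin-like modifier, read -6.08, -5.89 and -3.56 in marrow c-kit cells, the first 2 at or below the fill value, and 4.6 and 3.8 in cardiomyocytes (-9.38 ± 0.97, SE). It read 0.86, -1.04 and 0.36 in MSC (-4.14 ± 0.97). Cxcl9, a chemokine for T cells, differed by -7.96 and -6.88 in marrow c-kit cells and MSC, with 1 array of each at or below the fill value, Rtp4 by -7.73 in marrow c-kit cells, and the GTPase Iigp1 by -6.35 and -7.44. Irgm1, a regulator of such GTPases, read -0.49, 0.42 and -0.41 on the marrow c-kit arrays, 0.31, 0.14 and 0.19 on the MSC arrays, and 3.93 and 3.76 in cardiomyocytes. In the side population 6 of the 29 were lower than in cardiomyocytes and 0 higher (3.29% of all genes were lower). They included Sp100 (-7.6) and Parp14 (-7.15), each with 1 side population array at or below the fill value, and Dtx3l, with both, for which no size is given. The nuclear-body protein Sp100 was lower in MSC too (-5.2), 2 of the 29 were lower in heart c-kit cells, Cxcl10 (-5.35, with 1 array at or below the fill value) and Iigp1 (-5.15; 2.6% of all genes were lower), and 0 were called in Sca1 cells, as were 0% of all genes.

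Of 12 ligands, receptors and signalling genes measured (of 14 listed), 5 passed the F-test (41.7%, against 31.9% of all genes). Interferon gamma itself, Ifng, read 2.9, 2.12 and 1.34 in MSC and -0.73 or less on every other array, so MSC were higher than Sca1 cells (5.04 ± 0.62, SE), cardiomyocytes (3.82 ± 0.69) and marrow c-kit cells (3.12 ± 0.62). Its receptor chain Ifngr2 was higher in MSC as well, at 7.31, 7.46 and 7.12 against 5.76 or less elsewhere. Stat2, part of the type I complex, was lower in MSC (1.27, 0.45 and 0.55) than in cardiomyocytes (4.79 and 4.39; -3.84 ± 0.65). The phosphatase Ptpn6, a leukocyte gene, was higher in marrow c-kit cells than in cardiomyocytes (4.15) and in MSC than in Sca1 cells (5.95). Of 24 antigen-presentation genes, 7 passed the F-test (29.2%, against 31.9% of all genes), and 0 were called in either direction in MSC, marrow c-kit, heart c-kit or Sca1 cells against cardiomyocytes. Side population cells had 2 higher, Rfx5 (3.05) and Erap1 (2.47), and 2 lower, Cd74 (-6.37) and Ctss (-5.62), the last 2 with 1 side population array each at or below the fill value (1.91% of all genes were higher and 3.29% lower). Ctss, the lysosomal protease that trims the invariant chain, read 6.68, 7.36 and 6.61 in MSC and was higher there than in Sca1 cells (7.77 ± 1.23).

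**Figure D4:**
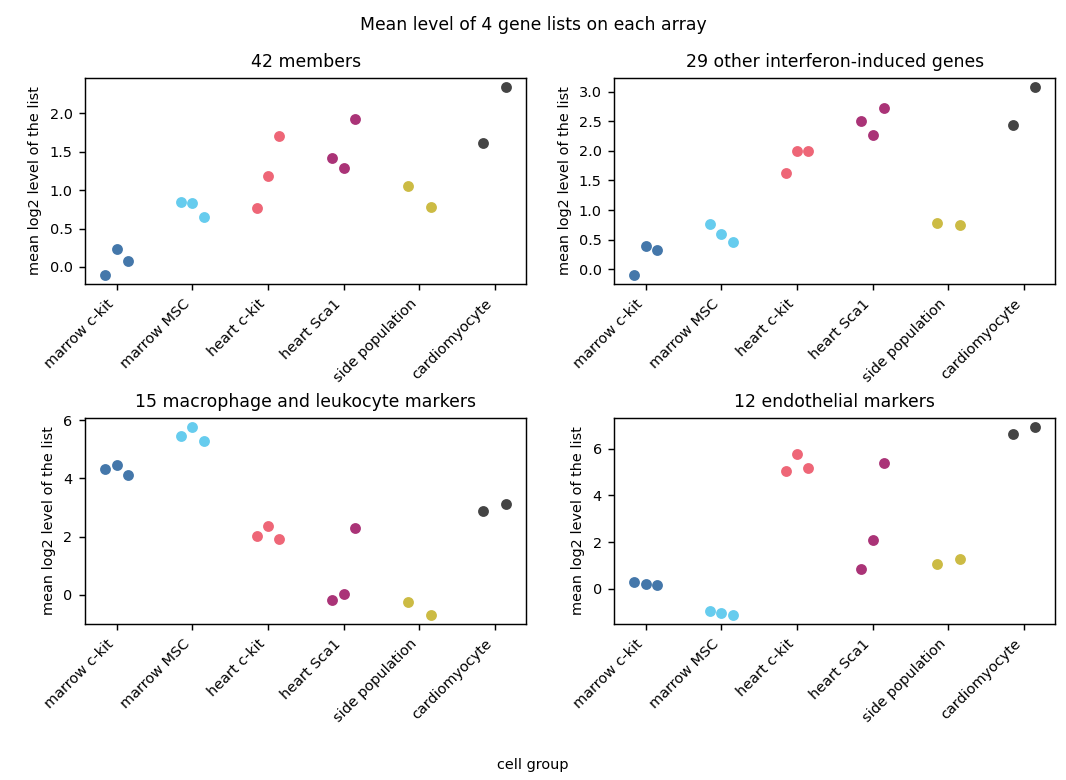
Each panel shows the mean log2 level of a gene list (vertical axis) on every array by cell group (horizontal axis). The 42 members and the 29 other interferon-induced genes are lowest on the marrow c-kit arrays (-0.1 to 0.24 and -0.09 to 0.4) and highest on cardiomyocyte replicate 2 (2.34 and 3.07), while leukocyte markers are highest in MSC and endothelial markers in cardiomyocytes.

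By array, the members' mean level was -0.1, 0.24 and 0.08 for marrow c-kit cells, 0.85, 0.83 and 0.65 for MSC, 1.06 and 0.78 in the side population, 0.77, 1.18 and 1.7 in heart c-kit cells, 1.42, 1.29 and 1.93 in Sca1 cells, and 1.61 and 2.34 in cardiomyocytes. The marrow c-kit arrays lay below all others, MSC overlapped the side population and 1 heart c-kit array, and Sca1 cells overlapped cardiomyocytes.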

How the data were processed

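The authors deposited 1 table of log2 values, 26423 probes by 16 arrays; per the labels' protocols, total RNA was amplified to cDNA with WT-Ovation Pico and labelled with Cy5, and only the Cy5 channel of a 2-colour chip was used. The background correction is not given in the sources used here. The log base was read from the values: above each array's most frequent value they are log2 of whole numbers that reach 65436 to 65471, and all arrays but MSC replicate 3 (mean 0.3) average 0. That most frequent value fills 3.38 to 13.8% of the probes of an array; on 12 of the 16 arrays 1 other repeated value, on 0.825 to 3.08% of probes, lies below it, and a gene at or below the fill value has only an upper bound.

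Symbols came from the platform's probe table: 20377 probes had 1, of which 18213 matched a current RefSeq symbol, 2126 a synonym and 38 several genes. A histone symbol shared with the class II beta chain was left out as ambiguous. Arrays were quantile normalised, the probe of highest mean stood for each gene, and limma 3.58.1 in R 4.3.3 fitted 6 group means to all 16 arrays (10 residual degrees of freedom), with p-values adjusted over 17710 genes and a threshold of 0.05; the steps were tested on simulated data. Groups followed the array titles. Within a group, arrays correlated at 0.748 (side population) to 0.942 (MSC). Signal over background and the number of arrays limit the precision.

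The members and gene lists were chosen with earlier results of these data known. Members were named where called (up to 5 highest and 5 lowest in a comparison), among the 30 smallest F-test p-values, or by role; pathway genes were named where called, up to 5 in a comparison plus Cd74, Ciita and B2m. Dendritic, B, T and NK cell marker lists were measured too, with array means from -4.01 to -0.5, from -2.17 to -0.05 and from -3.22 to -0.02. Alternatives were other array scalings, a filter and a floor on low values, probe means, trended robust moderation, a replicate block and each array left out.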

Additional observations from a re-analysis of the deposited data

Results flagged for a closer look

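By limma's interaction term, the c-kit to stromal difference was not the same in heart and marrow for 2 of the 42 members (4.76%). This share was below the 7.46% of all genes that were called. Stromal here stands for Sca1 cells in heart and MSC in marrow. Ifi44 gave 8.01 ± 1.58 (SE, adjusted p = 0.00666), with every heart c-kit array above every Sca1 array and every marrow c-kit array below every MSC array. Ifi27 gave 2.76 ± 0.7 (adjusted p = 0.0269), with its low values on the 3 marrow c-kit arrays. The Ifi27 call was lost under 8 of the 16 omissions of an array, with array medians aligned and with the deposited values.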

How the results depend on the processing

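All 43 called differences between groups kept their sign under every setting that was run. With array medians aligned in place of quantile normalisation, 26 of the 43 missed the threshold, with the deposited values 21, with low values raised 3, with the replicate block 5, with trended robust moderation 1, without the side population arrays 1 of 40, without the lowest 30% of genes 0 of 37, and with probe means 0 of 43. Over the 688 refits without 1 array, 150 did. Aligning medians moved the median difference of all genes from 0.06 to 1.34 in side population cells, from 0.13 to 0.83 in heart c-kit cells and from 0.1 to 0.46 in MSC, each against cardiomyocytes, and the share of called genes that were higher from 36.7% to 91.2%, from 27.8% to 39.2% and from 50% to 64.6%. It moved that share from 40.2% to 29.5% for marrow c-kit cells against cardiomyocytes, from 66.8% to 80.3% for MSC against marrow c-kit cells and from 49.1% to 65.3% for the interaction, and the deposited values moved it from 29.6% to 17.6% for heart c-kit against Sca1 cells.

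Counts of called members moved as follows. Aligned medians gave 2 for MSC and 4 for marrow c-kit cells against cardiomyocytes, 0 for heart c-kit cells, 4 for MSC against Sca1 cells, 2 for heart c-kit against Sca1 cells and 1 for the interaction. The deposited values gave 3, 5 and 0 against cardiomyocytes for the same 3 groups, 1 for side population cells and 1 for the interaction. For heart c-kit cells against cardiomyocytes, probe means, trended robust moderation and, chosen after seeing the data, omitting the side population arrays each gave 2. The interaction gave 4 without the lowest 30% of genes, 5 with low values raised and 5 without the side population arrays. With 1 array left out, counts ran from 12 to 21 over the 6 groups, 2 to 9 in MSC, 6 to 15 in marrow c-kit cells, 0 to 2 in heart c-kit cells, 0 to 2 in Sca1 cells and 0 to 4 in side population cells against cardiomyocytes, 3 to 10 for MSC against Sca1 cells, 2 to 10 for MSC against marrow c-kit cells, 1 to 5 for heart c-kit against Sca1 cells and 1 to 5 for the interaction.

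Replicate numbers did not pair the arrays in general: deviations of 36 same-numbered pairs correlated at -0.18 to 0.4, with a median of 0.01 and 4 over 0.1. The 70 differently numbered pairs correlated at -0.4 to 0.32, with a median of 0 and 10 over 0.1. Single arrays can still share a component. Replicate 1 of marrow c-kit cells, heart c-kit cells and cardiomyocytes read highest of all arrays for Irf1 (5.88, 6.48 and 7.05), Oas1c (5.49, 6.26 and 6.11) and Oas1f (4.29, 5.39 and 5.76). The same arrays had the smallest SDs of deposited values (3.29, 2.9 and 2.95, against 3.43 to 4.05 on the others). They and marrow c-kit replicate 3 had no value below the fill value. The source of the shared component was not tested. With the replicate number as a block, 17 members passed the F-test; calls numbered 6 in MSC, 11 in marrow c-kit, 0 in heart c-kit, 0 in Sca1 and 3 in side population cells against cardiomyocytes, 8 for MSC against Sca1 cells, 7 for MSC against marrow c-kit cells, 4 for heart c-kit against Sca1 cells and 4 for the interaction.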
